A study of Mus musculus with 8 samples.

Results

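The genes described here are 35 mouse genes of DNA replication and S phase, chosen by symbol for their known roles, with earlier results of these data known. They cover 9 genes of origin licensing, 4 of helicase activation, 11 of the fork, 3 of nucleotide supply, 5 of chromatin and histone mRNA, and 3 of S phase entry and turnover. All 35 were measured and passed the filter on dim probes, among 26874 genes and transcripts tested in all. They were read from 1-colour Agilent arrays of neural stem cells, the self-renewing progenitors of the embryonic brain, taken from OF-1 mouse embryos at E13.5. Cells of 4 independent experiments with different donors were divided at isolation between 5% oxygen (hypoxia in the labels) and atmospheric oxygen of 21% (normoxia), and both arms grew in serum-free medium for at least 10 days before RNA extraction. This gave 4 arrays per oxygen level, and the labels name no genetic change or other agent in either arm. The number of embryos behind a culture is not given in the sources used here. Same-numbered arrays formed a pair, and changes are hypoxia minus normoxia within pairs, on a log2 scale.

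DNA replication is prepared in G1, when the origin recognition complex, Cdc6 and Cdt1 load the ring-shaped MCM helicase onto origins, a step called licensing. At S phase entry cyclin E with its kinase and the factors Cdc45, Mcm10 and GINS turn the loaded ring into the moving helicase, and polymerases, the sliding clamp Pcna and its loader Rfc copy the strands while ribonucleotide reductase and thymidylate synthase supply deoxynucleotides. Most of these genes are known targets of E2F transcription factors, which the retinoblastoma proteins hold in check until the cell commits to division. Neural stem cells of the embryonic brain are dividing cells, in which this machinery is in regular use.

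Each array holds 62976 spots. Leaving control spots aside, 64.4% to 73.9% of them exceeded background well by the scanner software's own test, and none was saturated. The 75th percentile of the signal, to which values are set, ran from 1596 intensity units on hypoxia array 1 to 6120 on normoxia array 4. All 12 markers of neural stem cells were kept, and none passed the test between oxygen levels. Their summed signal was 198 to 361 times that percentile at 5% and 173 to 290 times at 21% oxygen. Nes, an intermediate filament of these cells, had mean log2 signals relative to that percentile of 4.45 at 5% and 4.77 at 21% oxygen, and Sox2, a stem cell transcription factor, of 3.71 and 3.43.

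Replication genes were lower at 5% oxygen in 33 of the 35, with a median log2 change of -0.33 against 0.02 over all genes tested, but no single member passed the threshold. The largest decreases were those of Cdc6, the helicase loading factor (change -0.64), Fen1, the flap endonuclease that trims Okazaki fragments (-0.59), Tyms, thymidylate synthase (-0.57), and Rfc3, a clamp loader subunit (-0.56). Pcna (0.09) and Rrm2 (0.01) were the only members above 0, and both were below it under quantile normalization (-0.063 and -0.16). Of all genes and transcripts, 46.5% were lower at 5% oxygen, 1.32% passed at an adjusted p under 0.05 in that direction and 4.19% in the other (limma with the pair as a block, Benjamini-Hochberg over all genes). None of the 35 passed in either direction, against 5.51% of all genes, and 11 members were lower at an unadjusted p under 0.05, against 7.77% of all genes. That number was 7 without pair 2 and 5 without pair 3. With 1 mean per oxygen level and no block, 0.0781% of all genes passed and again no member did, and no member had an unadjusted p under 0.05, the smallest adjusted p being 0.682. Because the samples are bulk RNA, fewer cells in S phase and less of these mRNAs per cell cannot be told apart.

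**Figure D1:**
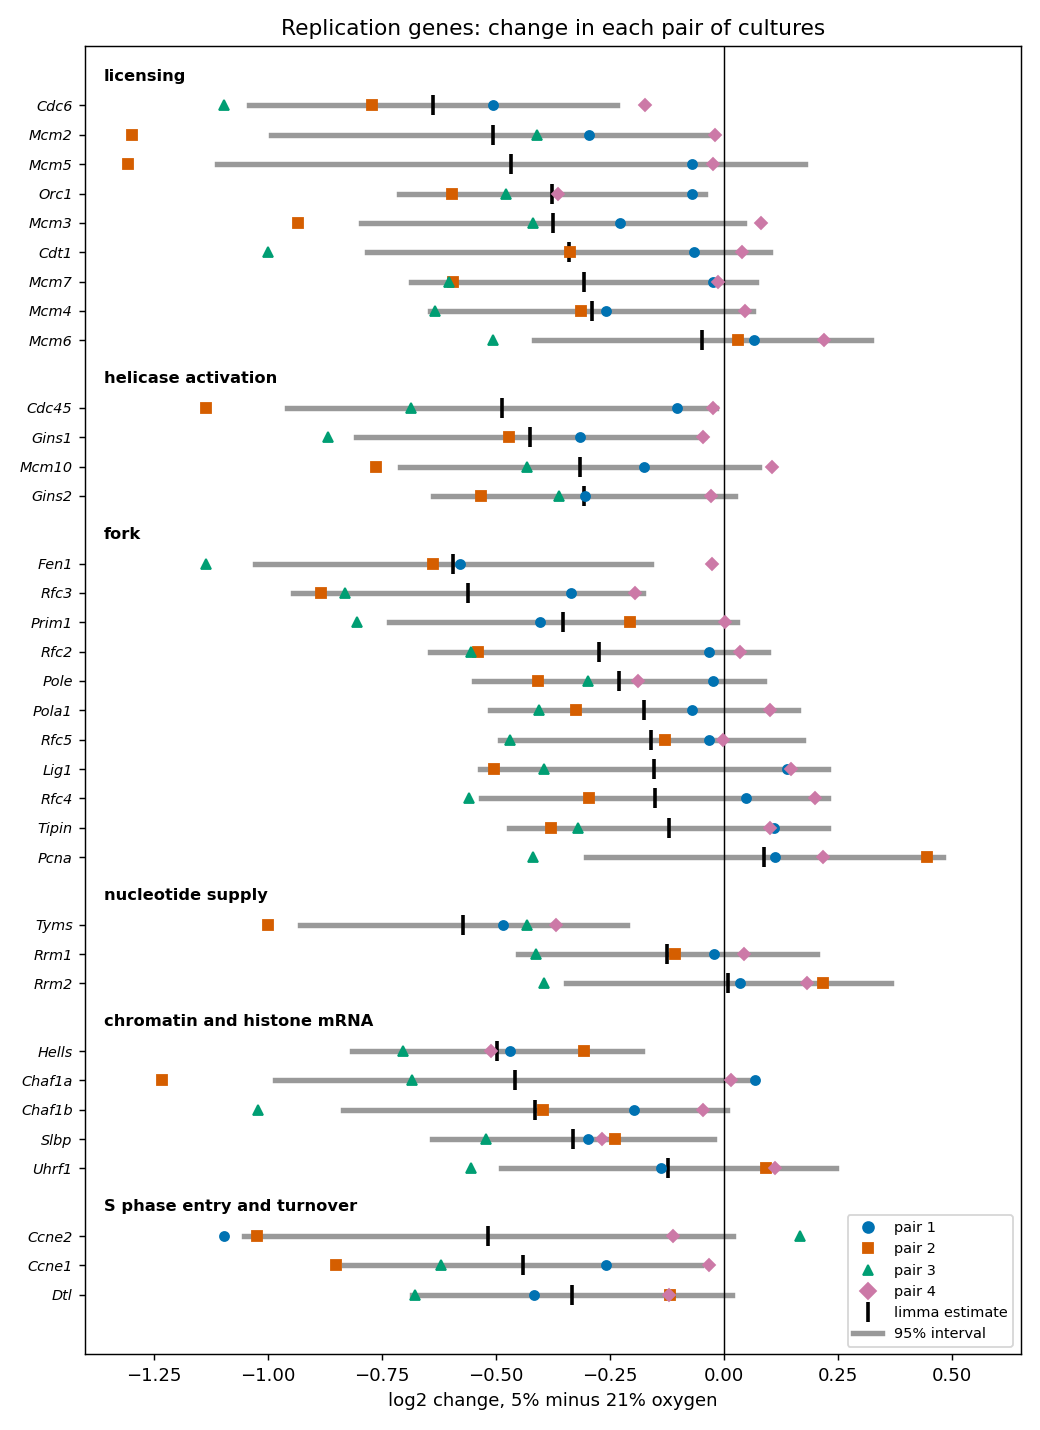
Change of each of the 35 genes, grouped by role: coloured symbols are the log2 change (5% minus 21% oxygen) in each of the 4 pairs, the black tick is the limma estimate and the grey bar its 95% confidence interval. Symbols of pairs 2 and 3 lie mostly left of 0 and those of pair 4 around 0, Pcna and Rrm2 have estimates above 0 that are below 0 under quantile normalization, and Mcm5 has no symbol for pair 3.

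The size of the decrease differed from pair to pair. The median change over the members was -0.14 in pair 1, -0.47 in pair 2, -0.54 in pair 3 and -0.01 in pair 4, while the median over all genes was 0.05, 0.15, -0.15 and 0.04. In pair 1, 28 of 35 members were lower (43.9% of all genes), in pair 2, 31 of 35 (38.5%), in pair 3, 33 of the 34 measured (64.4%), and in pair 4, 19 of 35 (44.7%). Pairs 2 and 3 thus held most of the shift, and in pair 4 the share lower was nearest to that of all genes. Without pair 3 the median of the limma changes was -0.22 over the members and 0.076 over all genes. In pair 3 the median of all genes was itself below 0.

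Members lower in all 4 pairs numbered 17 of 35, against 13.3% of all genes, and Mcm5 was lower in the 3 pairs in which it was measured. In no member did the 2 oxygen levels separate completely across the 8 arrays (1.77% of all genes had every hypoxia value below every normoxia value). Replicate numbers as a factor passed at an adjusted p under 0.05 in 7 of 35 members, a share of 20.0% near the 18.7% of all genes. Those 7 were Orc1, Cdc6, Mcm7, Pcna, Tyms, Hells and Ccne1. Leaving out the pairs in turn gave 1 (without pair 1), 2 (pair 2), 12 (pair 3) and 6 (pair 4) in their place. The share of all genes in those fits is not given here, so these counts cannot be set against it. Donor, culture and array cannot be told apart in these differences.

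Which members were lowest also changed between pairs. In pair 2 the steepest decreases were Mcm5 (-1.31), Mcm2 (-1.30), Chaf1a (-1.23) and Cdc45 (-1.13), while Pcna (0.44), Rrm2 (0.22), Uhrf1 (0.09) and Mcm6 (0.03) were higher. In pair 3 they were Fen1 (-1.13), Cdc6 (-1.10), Chaf1b (-1.02) and Cdt1 (-0.999), and Pcna and Rrm2 were lower as well (-0.42 and -0.40). Across the members, changes in pairs 2 and 3 had a Pearson correlation of 0.01 (34 genes), against 0.38 across all genes, and pairs 1 and 4 one of 0.52 (35 genes) in both. These are correlations across genes, which are not independent replicates, and stand as a description.

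**Figure D2:**
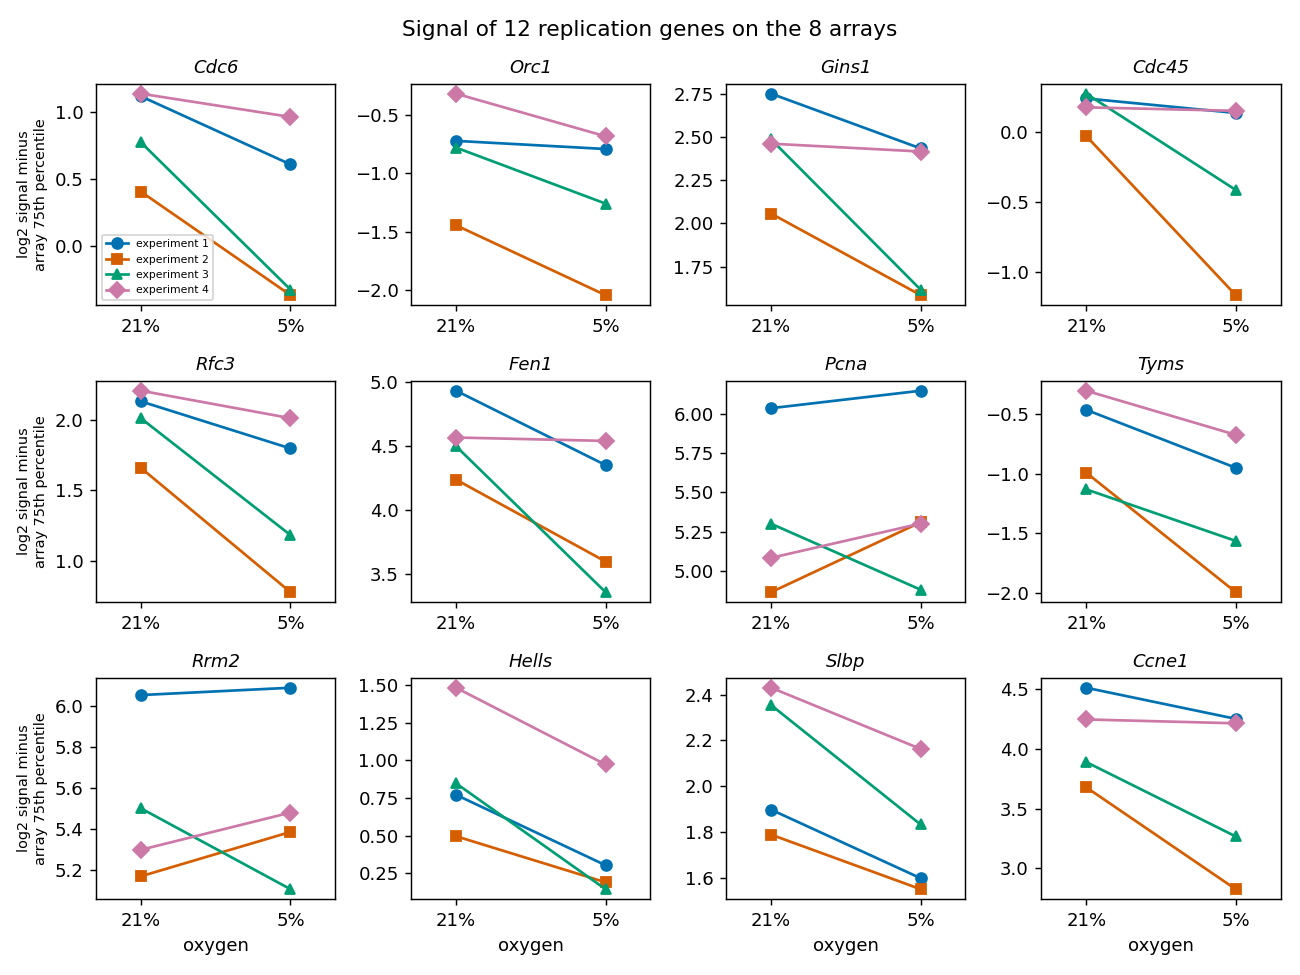
Log2 signal relative to the array's 75th percentile of 12 members at 21% and 5% oxygen, each line joining the 2 arrays of an experiment. Pcna and Rrm2 slope down in experiment 3 alone, and the other panels slope down in all 4 experiments.

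An E2F motif, which was not used to choose the genes, was present in many of their promoters. In the RefSeq windows of assembly GRCm38.p6, from 250 bases before to 50 bases after the transcription start, 28 of the 35 members had an entry, and 13 of these 28 (46.4%) held the E2F motif, searched as TTTCCCGC, TTTCGCGC, TTTGCCGC or TTTGGCGC on both strands. The motif was present in 2.26% of 32851 windows, and in 2.6% of 27025 genes with at least 1 window, the way the members were counted. A match describes letters and does not show binding. The stretches below, of 30 bases each, show the first match in each of the 13 genes on the gene's own strand, with matches in capitals, so that the shared core can be compared.
Orc1 chr4:108579416-108579445 on the plus strand: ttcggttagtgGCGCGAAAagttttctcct
Cdc6 chr11:98908002-98908031 on the plus strand: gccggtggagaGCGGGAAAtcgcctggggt
Cdt1 chr8:122568035-122568064 on the plus strand: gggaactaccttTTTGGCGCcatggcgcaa
Mcm3 chr1:20820275-20820304 on the minus strand: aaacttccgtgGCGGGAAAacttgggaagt
Mcm5 chr8:75109345-75109374 on the plus strand: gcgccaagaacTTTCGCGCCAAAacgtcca
Mcm6 chr1:128359797-128359826 on the minus strand: tggcgtatgctTTTGGCGCGAAAagtgcgt
Mcm7 chr5:138172030-138172059 on the minus strand: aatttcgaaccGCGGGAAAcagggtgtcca
Rfc3 chr5:151651200-151651229 on the minus strand: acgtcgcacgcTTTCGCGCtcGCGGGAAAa
Pola1 chrX:93632275-93632304 on the minus strand: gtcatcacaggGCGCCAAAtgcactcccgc
Lig1 chr7:13278841-13278870 on the plus strand: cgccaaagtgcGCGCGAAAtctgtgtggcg
Uhrf1 chr17:56304117-56304146 on the plus strand: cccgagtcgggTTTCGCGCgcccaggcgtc
Hells chr19:38930917-38930946 on the plus strand: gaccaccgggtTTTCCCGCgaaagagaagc
Dtl chr1:191575534-191575563 on the minus strand: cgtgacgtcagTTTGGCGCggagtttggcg

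Mcm6 held 3 matches, of which 2 overlap, Mcm5 held 2 that overlap, and Mcm3, Mcm7 and Rfc3 held 2 separate matches each. The 13 members with a match had a median change of -0.34 (from -0.64 to -0.05), and the 15 with a window but no match one of -0.35 (from -0.59 to 0.09). The 250 bases upstream of the start are printed for 3 members with and without matches: Cdc6, with 1 match and the lowest change, Mcm6, with 3 matches and a change near 0, and Tyms, with none and a change of -0.57.
Cdc6 chr11:98907901-98908150 on the plus strand: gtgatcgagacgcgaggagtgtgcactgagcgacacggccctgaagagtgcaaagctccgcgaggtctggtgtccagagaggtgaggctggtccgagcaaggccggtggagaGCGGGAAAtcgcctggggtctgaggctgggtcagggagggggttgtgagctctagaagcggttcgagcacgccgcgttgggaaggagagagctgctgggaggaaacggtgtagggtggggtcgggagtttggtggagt
Mcm6 chr1:128359706-128359955 on the minus strand: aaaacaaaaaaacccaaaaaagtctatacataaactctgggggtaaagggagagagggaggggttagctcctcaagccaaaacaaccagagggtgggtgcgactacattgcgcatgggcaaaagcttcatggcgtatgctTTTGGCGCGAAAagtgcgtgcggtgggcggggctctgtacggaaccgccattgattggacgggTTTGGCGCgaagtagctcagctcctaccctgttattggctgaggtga
Tyms chr5:30073626-30073875 on the minus strand: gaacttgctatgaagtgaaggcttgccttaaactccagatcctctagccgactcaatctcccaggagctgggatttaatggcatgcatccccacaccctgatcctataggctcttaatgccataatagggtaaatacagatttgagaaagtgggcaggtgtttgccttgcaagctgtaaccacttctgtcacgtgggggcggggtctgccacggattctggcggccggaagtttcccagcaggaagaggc

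The CCAAT box, searched as CCAAT on both strands, was present in 18 of 28 members (64.3%) and 41.1% of all genes with a window. A 6-base form of the hypoxia response element, TACGTG or GACGTG, was present in 6 of 28 members (21.4%) and in 10.5% of all genes. The 6 members with it had a median change of -0.24 and the 22 without it one of -0.36, a difference that was not tested. Median GC content was 61.3% over the windows of members and 52.7% over all windows, and the E2F and hypoxia motifs contain C and G. Among other replication genes 12 of 49 (24.5%) held the E2F motif, and among genes of G2 and mitosis 1 of 25 (4%). In the same 2 lists the CCAAT box was present in 49% and 80%, and the hypoxia motif in 14.3% and 12%.

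Licensing genes were lower in all 9 members, with a median change of -0.38. Cdc6, which takes part with Orc1 in loading the helicase onto origins, was the lowest. It lay at 1.12, 0.40, 0.77 and 1.14 at 21% oxygen and at 0.61, -0.37, -0.32 and 0.96 at 5%, in the order of experiments 1 to 4. Every hypoxia value was below its partner, and the 2 groups overlapped, since experiment 4 at 5% oxygen was above experiments 2 and 3 at 21%. The change was -0.64 (SE 0.18, adjusted p = 0.0823), or 1.56-fold lower, and a second probe of Cdc6 gave -0.53. Cdc6 passed without pair 4, at -0.79 with an adjusted p of 0.0492, and in 2 other settings given in the closing section.

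Orc1, the largest subunit of the origin recognition complex, lay at -0.72, -1.44, -0.78 and -0.32 at 21% oxygen and at -0.79, -2.04, -1.26 and -0.68 at 5%. Its change was -0.38 (SE 0.15, adjusted p = 0.203), small in pair 1 (-0.07) and between -0.36 and -0.60 in the others. Cdt1, which escorts the helicase to the origin, had a change of -0.34 (SE 0.19, adjusted p = 0.388), and its lowest value by far was that of pair 3 (-0.999).

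All 6 subunits of the MCM ring had estimates below 0, and none passed. Mcm2 was at -0.51 (SE 0.21, adjusted p = 0.24), Mcm5 at -0.47 (SE 0.27, adjusted p = 0.417), Mcm3 at -0.38 (SE 0.18, adjusted p = 0.314), Mcm7 at -0.31 (SE 0.16, adjusted p = 0.362), Mcm4 at -0.29 (SE 0.15, adjusted p = 0.361) and Mcm6 at -0.05 (SE 0.16, adjusted p = 0.917). Mcm2 lay at 3.96, 3.80, 3.60 and 3.69 at 21% oxygen and at 3.67, 2.51, 3.19 and 3.67 at 5%. Array hypoxia 2 stood lowest for Mcm2, and hypoxia 3 also lay below every normoxia array. The Mcm5 spot on normoxia array 3 carried an outlier mark, so its fit used 3 pairs, and with marked spots kept the change was -0.40 (adjusted p = 0.394). Without pair 2 the Mcm5 change was -0.047, and that of Mcm2 was -0.24. Mcm6 lay at 6.05, 5.19, 5.50 and 5.35 at 21% oxygen and at 6.12, 5.22, 4.99 and 5.57 at 5%, higher at 5% oxygen in pairs 1, 2 and 4 and lower in pair 3, and its estimate turned to 0.11 without pair 3 and was -0.23 under quantile normalization, where Mcm7 was at -0.47. The difference between the changes of Mcm2 and Mcm6 was -0.46 ± 0.61 (SD, n = 4 pairs) and was below 0 in 3 pairs. This pair of genes was picked for its difference, which is therefore a description without a test.

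Helicase activation genes were lower in all 4 members, with a median change of -0.37. Gins1 belongs to the GINS complex, which joins Cdc45 and the MCM ring in the moving helicase. Gins1 lay at 2.75, 2.06, 2.48 and 2.46 at 21% oxygen and at 2.43, 1.58, 1.62 and 2.42 at 5%, lower in every pair, with a change of -0.43 (SE 0.17, adjusted p = 0.206). Cdc45 lay at 0.24, -0.03, 0.27 and 0.18 at 21% oxygen and at 0.14, -1.16, -0.41 and 0.15 at 5%. Arrays hypoxia 2 and 3 were the lowest for Cdc45, while the other hypoxia arrays reached the range of normoxia, and the change was -0.49 (SE 0.20, adjusted p = 0.241). Mcm10, which stimulates the assembled helicase, was at -0.32 (SE 0.17, adjusted p = 0.368) and Gins2 at -0.31 (SE 0.14, adjusted p = 0.295).

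Fork genes had the widest range of changes, with 10 of 11 lower and a median change of -0.17. Fen1 lay at 4.93, 4.24, 4.50 and 4.57 at 21% oxygen and at 4.35, 3.60, 3.36 and 4.54 at 5%. It was lower in all 4 pairs, barely so in pair 4 (-0.03), with a change of -0.59 (SE 0.19, adjusted p = 0.124), or 1.51-fold lower. Rfc3 lay at 2.13, 1.66, 2.01 and 2.21 at 21% oxygen and at 1.80, 0.78, 1.18 and 2.01 at 5%, with pair changes from -0.88 to -0.20 and a change of -0.56 (SE 0.17, adjusted p = 0.102). The other clamp loader subunits among the 35 had estimates nearer to 0, at -0.27 for Rfc2, -0.15 for Rfc4 and -0.16 for Rfc5 (adjusted p = 0.411, 0.688 and 0.612), and Rfc1, the large subunit and one of the other replication genes, was at -0.19 (0.584). Rfc1 is named here after its value was seen.

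Pcna, the sliding clamp that holds polymerases on DNA, was the highest member. It lay at 6.04, 4.87, 5.30 and 5.08 at 21% oxygen and at 6.15, 5.31, 4.88 and 5.30 at 5%, higher at 5% oxygen in 3 pairs and lower in pair 3. Its change was 0.09 (95% confidence interval -0.30 to 0.48, adjusted p = 0.838), and it turned to -0.063 under quantile normalization and -0.030 without pair 2. Fen1, whose protein works bound to Pcna, had a change that differed from that of Pcna by -0.68 ± 0.34 (SD, n = 4 pairs), with the lower value for Fen1 in all 4 pairs, a comparison chosen after the values were seen.

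Of the polymerase genes, Prim1, the catalytic primase subunit, was at -0.35 (SE 0.17, adjusted p = 0.297), Pole, the leading strand polymerase, at -0.23 (SE 0.14, adjusted p = 0.422), and Pola1, which extends the primers, at -0.17 (SE 0.15, adjusted p = 0.582). A second, dim probe of Pole, well above background on 7 arrays, gave -0.60. Lig1, the ligase that seals Okazaki fragments, was at -0.15 (SE 0.17, adjusted p = 0.686) and Tipin, of the fork protection complex, at -0.12 (SE 0.15, adjusted p = 0.735). Both were lower in pairs 2 and 3 and higher in pairs 1 and 4.

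Nucleotide supply genes were thymidylate synthase and the subunits of ribonucleotide reductase, and 2 of the 3 were lower, with a median change of -0.12. Tyms, which makes the thymidine nucleotide, had the smallest p of the 35. It lay at -0.47, -0.99, -1.13 and -0.31 at 21% oxygen and at -0.95, -1.99, -1.56 and -0.67 at 5%, lower in every pair, with -0.37 in pair 4 as the smallest difference. The groups overlapped, since hypoxia arrays 1 and 4 lay above normoxia arrays 2 and 3. Its change was -0.57 (SE 0.16, adjusted p = 0.0802), or 1.49-fold lower, and no call resulted without any 1 pair. Rrm2, the regulatory subunit of ribonucleotide reductase, lay at 6.06, 5.17, 5.50 and 5.30 at 21% oxygen and at 6.09, 5.39, 5.11 and 5.48 at 5%, and experiment 1 stood above the rest at both oxygen levels. Its change was 0.01 (SE 0.15, adjusted p = 0.984) with a 95% confidence interval of -0.35 to 0.37, and it was below 0 without pair 2 (-0.059), without pair 4 (-0.048), under median scaling (-0.036) and under quantile normalization (-0.16). Rrm1, the catalytic subunit, was at -0.12 (SE 0.14, adjusted p = 0.706). The change of Tyms was below that of Rrm2 in all 4 pairs, by -0.58 ± 0.48 (SD), and below that of Rrm1 in all 4, by -0.45 ± 0.36. In pair 3 the differences were -0.04 and -0.02. These comparisons were also picked after the values were seen and carry no test.

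**Figure D3:**
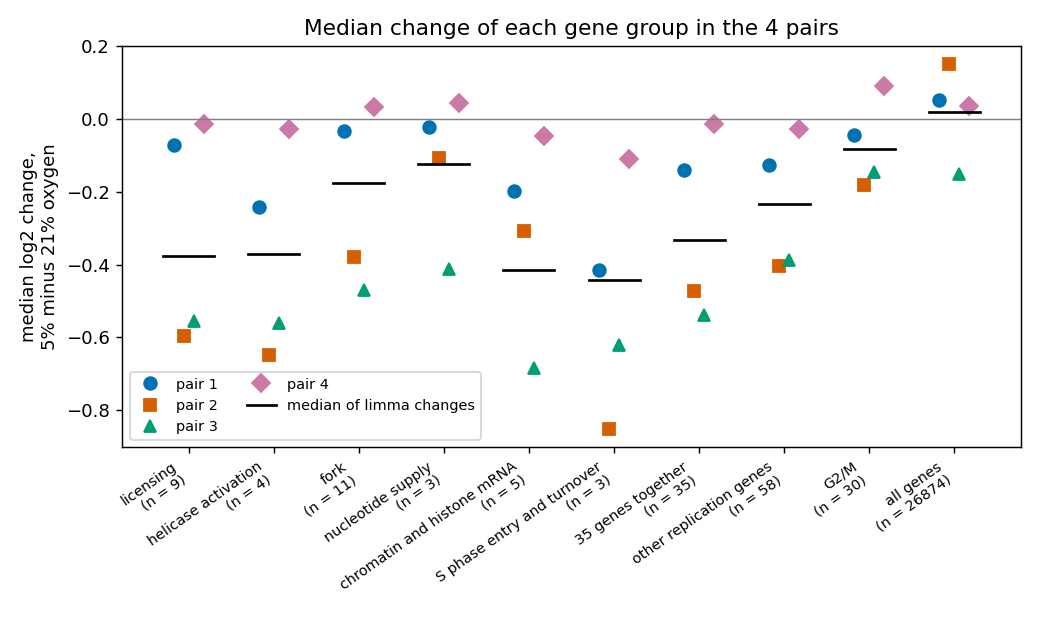
Median log2 change (5% minus 21% oxygen) of each role, of the 35 genes together, of 58 other replication genes, of 30 G2/M genes and of all genes: symbols are the 4 pairs and the black line the median of the limma changes. Among the roles, nucleotide supply and fork genes have the medians nearest to 0, at -0.12 and -0.17, while the G2/M genes lie at -0.08 and all genes at 0.02, and pair 4 runs from -0.11 to 0.04 over the roles.

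Set side by side, the median changes were -0.38 for licensing, -0.17 for fork and -0.12 for nucleotide supply genes. The licensing median was below the fork median in all 4 pairs, by -0.04, -0.22, -0.08 and -0.05, a mean of -0.10 ± 0.08 (SD), and below the nucleotide supply median by -0.05, -0.49, -0.14 and -0.06. The fork and nucleotide supply medians differed by -0.01, -0.27, -0.06 and -0.01. Outside pair 2 all of these differences were at most 0.14 in size, and the nucleotide supply group has 3 genes, 1 of which, Tyms, lay below the licensing median. The order of the 3 medians held in all 14 alternatives run, and is a description without a test. The sizes moved with single pairs: without pair 3 the medians were -0.10 for fork and -0.028 for nucleotide supply genes, without pair 4 that of fork genes was -0.27, and without pair 2 that of licensing genes was -0.24. The median over all genes was then 0.076 without pair 3, 0.020 without pair 4 and -0.024 without pair 2.

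Chromatin genes, which package the copied DNA, were lower in all 5 members, with a median change of -0.41 (-0.27 without pair 3). Hells, a remodelling ATPase needed for DNA methylation, lay at 0.77, 0.50, 0.85 and 1.48 at 21% oxygen and at 0.30, 0.19, 0.14 and 0.97 at 5%, and it was lower in each pair, with changes from -0.70 to -0.31 and pair 4 at -0.51. Its change was -0.50 (SE 0.14, adjusted p = 0.084). Slbp, which binds the stem loop of histone mRNAs, lay at 1.90, 1.79, 2.35 and 2.43 at 21% oxygen and at 1.60, 1.55, 1.83 and 2.16 at 5%. Its pair changes ran from -0.24 to -0.52, all below 0, with a change of -0.33 (SE 0.13, adjusted p = 0.225) and a second probe at -0.34.

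Chaf1a and Chaf1b, subunits of the histone chaperone CAF-1, were at -0.46 (SE 0.23, adjusted p = 0.325) and at -0.41 (SE 0.18, adjusted p = 0.267). Chaf1a was lower in pairs 2 and 3 alone, by -1.23 and -0.68, and was at 0.07 and 0.01 in pairs 1 and 4. Uhrf1, which brings the maintenance methyltransferase to copied DNA, was at -0.12 (SE 0.16, adjusted p = 0.749), and at 0.022 without pair 3. Its 2 probes, designed on different transcripts, gave -0.12 and -0.43, and the dimmer one was the lower.

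Genes of S phase entry and turnover were lower in all 3 members, with a median change of -0.44. Ccne1, cyclin E1, lay at 4.51, 3.68, 3.89 and 4.24 at 21% oxygen and at 4.25, 2.83, 3.27 and 4.21 at 5%. It was lower in each pair, with -0.85 in pair 2 and -0.03 in pair 4, a change of -0.44 (SE 0.17, adjusted p = 0.201) and a second probe at -0.57. Ccne2 was dim, well above background on all 4 normoxia and 2 of the 4 hypoxia arrays, and its change was -0.52 (SE 0.23, adjusted p = 0.277), made up of -1.10 and -1.02 in pairs 1 and 2 against 0.17 and -0.11 in pairs 3 and 4. It was -0.17 (adjusted p = 0.63) with normexp background and -0.32 without pair 1. Dtl, the receptor of the ubiquitin ligase that removes Cdt1 in S phase, was at -0.33 (SE 0.15, adjusted p = 0.285) and was lower in all 4 pairs.

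Brighter probes of the members had smaller decreases. The rank correlation between a member's mean log2 signal and its change was 0.63 (35 genes), and -0.02 across all 26874 genes. Pcna, Rrm2 and Mcm6 had the 3 highest mean signals of the members. In the 7 members with a second probe the 2 probes had the same direction, and the dimmer probe was lower in 5 of them (Ccne1, Pole, Rfc4, Slbp and Uhrf1). None of these probes was saturated, and the part of signal level in the result was not tested.

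Of 58 further replication genes, likewise chosen with earlier results of these data known, 49 were lower (46.5% of all genes), with a median change of -0.23, 25 were lower in all 4 pairs (13.3% of all genes) and none passed, against 1.32% and 4.19% of all genes. The difference between their median and that of the 35 was not tested, and in pair 4 theirs was the lower (-0.03 against -0.01). Of these 58, 13 were lower and 1 higher at an unadjusted p under 0.05, against 7.77% and 11.6% of all genes. Orc2, another origin recognition subunit, was at -0.63 (adjusted p = 0.0985), Dbf4, which activates the kinase Cdc7 at origins, at -0.43 (0.118), Shmt1, which feeds thymidylate synthesis, at -0.57 (0.134), and the maintenance methyltransferase gene Dnmt1 at -0.35 (0.254). Pold4, the smallest subunit of polymerase delta, went the other way at 0.65 (SE 0.16, adjusted p = 0.0571), higher in all 4 pairs. In the E2F and retinoblastoma family 9 of 13 were lower (46.5% of all genes), with a median change of -0.32 and none past the threshold. E2f1 was at -0.36 (adjusted p = 0.299) and Tfdp2, an E2F partner, at -0.51 (0.0761) and lower in all 4 pairs.

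Genes of G2 and mitosis had a median change of -0.08, with 21 of 30 lower (46.5% of all genes) and none past the threshold. Their pair medians were -0.04, -0.18, -0.14 and 0.09. Mki67, the proliferation antigen, was at 0.11 (adjusted p = 0.733), Top2a at 0.10 (0.739) and Ndc80, a kinetochore gene with the smallest p of the list, at -0.38 (0.199). The difference between the replication and the G2/M genes was not tested.

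**Figure D4:**
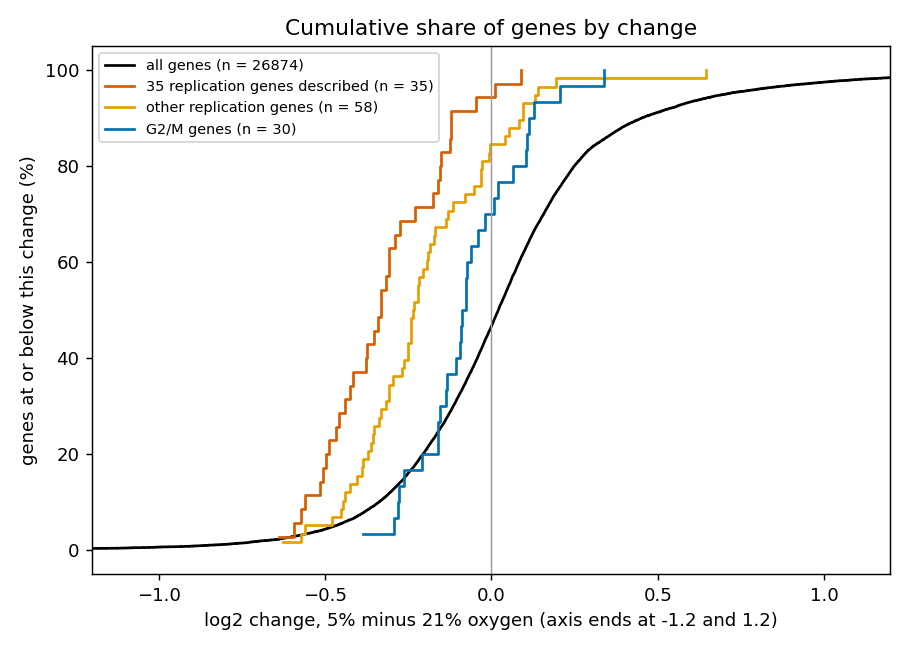
Cumulative share of genes against log2 change (5% minus 21% oxygen) for all 26874 genes, the 35 replication genes, 58 other replication genes and 30 G2/M genes. The curve of the 35 genes reaches 94.3% at 0, that of the G2/M genes 70% and that of all genes 46.5%.

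In lists of markers of neurons, glia and other cell types, some genes rose and some fell at 5% oxygen in the same arrays. Past the same threshold, 4.19% of all genes rose and 1.32% fell. Of 13 neuronal markers tested 4 rose, the microtubule protein gene Mapt by 1.25 (adjusted p = 0.00447) and Nefl, Nefm and Gad2 by 1.52, 0.75 and 0.80, with a median change of 0.44, and the summed signal of the list ran from 29.1 to 37.5 at 5% and from 25.1 to 28.4 at 21% oxygen, in multiples of the array's 75th percentile. Of the same 13 markers 5 had estimates below 0, none past the threshold, among them the brightest, Map2, at -0.03. Of 9 astrocyte markers 3 rose, Ntsr2 by 1.12, Slc1a2 by 0.91 and Fgfr3 by 0.83, with a median of 0.48 and summed signals of 114 to 223 against 83.5 to 162. The brightest of these markers, which weigh most in the sum, were Aldoc at 0.31 and Aldh1l1 at 0.48. Neither passed (adjusted p = 0.266 and 0.0895). Gfap, at 0.41 (0.487), did not pass either, and 1 marker, Gja1, was below 0 at -0.04. Of 10 oligodendrocyte lineage markers 2 rose, Mbp by 1.55 and Cspg4 by 0.89, and 1 fell, Mobp at -2.06 (median 0.34, sums of 102 to 151 and 82.9 to 131). Mobp was dim, with mean log2 signals of -4.92 at 5% and -2.86 at 21% oxygen. The brightest of the list, Olig1 and Olig2, were at 0.12 and -0.13. Sox10 (1.76, adjusted p = 0.0994) and Pdgfra (1.68, 0.145) had the largest estimates, did not pass, and were below 0 in pair 2. Of 6 meningeal fibroblast markers 4 rose and 1 fell, Ogn at -2.15, with the highest median of these lists, 1.23 (sums of 2.60 to 12 and 1.33 to 6.24). The neuronal, astrocyte and meningeal sums were higher at 5% oxygen in all 4 pairs, the oligodendrocyte lineage sum in 3, and the endothelial and microglial sums in 2. Of 8 endothelial and mural markers 2 rose and 3 fell (median -0.02, sums of 8.38 to 11.4 and 8.15 to 17.6), and none of 8 microglial markers passed (median -0.0073, sums of 3.37 to 7.12 and 3.04 to 7.31). The endothelial and mural markers that fell were Cldn5 (-2.36), Tek (-1.39) and Acta2 (-1.28). Those that rose were Pdgfrb (1.54) and Cspg4, which is also counted in the oligodendrocyte lineage list. Slc17a6, Gjb6 and Cdh5 did not pass the filter on dim probes. The part of these markers in the lower replication genes was not tested.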

How the data were processed

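Scanner images were read with Feature Extraction 10.7.3.1, per the file headers, and the deposited intensity of a spot is background subtracted and detrended but not scaled across arrays. The table of log2 values deposited by the authors equals, within 0.01 for at least 99.78% of probes per array, the log2 signal minus the array's 75th percentile minus the probe's median (column medians from -0.12 to 0.25). Scanner values were treated likewise without the last step. Control spots and outlier spots were left out, spots of a probe averaged, and probes kept when well above background on 3 of 4 arrays of a group (37669 of 55681). Accessions were matched without versions to RefSeq symbols of GRCm38.p6 (27235 probes). The brightest probe stood for a gene.

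Groups were compared with limma 3.58.1 in R 4.3.3 (lmFit and eBayes, replicate number as a block, Benjamini-Hochberg, threshold 0.05), checked on simulated data. The block was kept because each experiment used its own donors in both arms, and deviations from group means correlated between same-numbered arrays at 0.76, 0.52, 0.38 and 0.66 (highest with another number -0.06, 0.31, 0.31 and -0.18). All arrays lay on 1 slide and were scanned together. The limited number of arrays sets the precision. Members and lists were chosen with earlier results of these data known. Values of all 8 arrays are given for the members with the smallest p of each role (2, or 1 in roles of 3 genes) and for the highest and lowest; Mcm2, Mcm6 and Rrm2 were added after their values were seen, as were Mki67, Top2a, E2f1, Nes and Sox2.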

Additional observations from a re-analysis of the deposited data

How the results depend on the processing

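Over 14 alternatives, members lower numbered 31 to 35 and their median change stayed within the spread of the pairs (-0.22 without pair 3 to -0.41 without pair 4), as did every role median. The share of all genes that were lower ran from 39.9% without pair 3 (median change 0.076) to 54.1% without pair 2 (-0.024). Under quantile normalization, where all 35 members were lower, that share was 54.1% as well (-0.023). No member rose in any of the alternatives. The count of members that fell was 0 in 10 alternatives. It was 1 with normexp background (Cdc6, adjusted p = 0.0347), 1 under median scaling (Hells, 0.0476), and 5 with trended, robust moderation (Cdc6, Rfc3, Fen1, Tyms and Hells), and without 1 pair it ran from 0 to 1 (Cdc6, without pair 4). Of all 26874 genes, 461 fell with normexp background, 382 under median scaling and 673 with trended, robust moderation. Without pair 4 that number was 391, against 355 in the main fit. Over all genes, the calls numbered 1481, against 21 with no replicate block, 437 with no filter on dim probes, 2307 with trended, robust moderation, and 348 to 1506 without 1 pair. Members lower at an unadjusted p under 0.05 numbered 11, against 0 with no replicate block, 6 with no filter on dim probes, 17 with normexp background, 19 with trended, robust moderation and 5 to 15 without 1 pair. In the main fit 7.77% of all genes were lower at that unadjusted p. With or without the replicate block no member passed, and the smallest adjusted p among them was 0.0802 with it and 0.682 without. Members that differed between experiments numbered 7, against 3 under quantile normalization and 1 to 12 without 1 pair. For these alternatives the share of all genes that differed between experiments is not given here. Estimates changed sign for Pcna (-0.063 under quantile normalization, -0.030 without pair 2), Rrm2 (-0.16 under quantile normalization, -0.036 under median scaling, -0.059 without pair 2 and -0.048 without pair 4), Mcm6 (0.11 without pair 3) and Uhrf1 (0.022 without pair 3). Without 1 pair the changes ran from -0.030 to 0.26 for Pcna, -0.059 to 0.14 for Rrm2, -0.14 to 0.11 for Mcm6 and -0.20 to 0.022 for Uhrf1. Median scaling subtracts 1 value per array, so it moves the change of every gene measured on all 8 arrays alike. The median over all genes moved with it from 0.021 to -0.025. The cause of the other shifts was not tested. With the filter at all 8 arrays Ccne2 was not tested. Ccne2, the dimmest member, was at -0.17 with normexp background.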
